A study of Mus musculus with 20 samples.

Results

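The Ms4a genes of macrophages are a row of related genes on mouse chromosome 19, and 6 of them, Ms4a4a, Ms4a4c, Ms4a6b, Ms4a6c, Ms4a6d and Ms4a7, were picked by symbol from a table of 23329 gene symbols. Ms4a4a is not analysed here, and the other 5 were followed through 20 RNA-seq libraries of sorted mouse myeloid cells. All 5 were among the 15363 genes that passed the filter on low counts. The libraries came from C57BL/6 mice and fell into 6 groups: microglia (MG, the resident macrophages of the brain) of normal brain (n = 3), MG of GEMM tumours (n = 3), MG of GL261 tumours (n = 3), bone-marrow-derived macrophages (BMDM) of GEMM tumours (n = 3), BMDM of GL261 tumours (n = 3) and Ly6C-high blood monocytes (n = 5). GEMM is the label's name for a genetically engineered glioma. Its tumours were started in the brain at 6 weeks of age with chicken DF1 cells that carried the avian retroviral vectors RCAS-PDGFB-HA and RCAS with a hairpin against p53. The host mice carried Flt3:Cre and Rosa26:mTmG, a reporter that turns descendants of Flt3-expressing blood progenitors from red (TdTomato) to green (GFP). GL261 is a mouse glioma line; the protocol text is the same on every sample and does not say how the GL261 tumours were made, whether those mice carried the reporter, or how old the normal and blood donors were. By that text, macrophages of tumours were sorted as CD11b and CD45 positive, negative for Ly6G and Ly6C, and either red only (MG) or green only (BMDM). Whether the colours were used for GL261 tumours is thus not known here, and their MG and BMDM are named by their labels. MG and BMDM libraries that share a number came from the same tumour, and the sources used here do not say whether a library pooled animals. Where it did not, p-values measure the spread between mice, and otherwise the spread between these samples only.

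MS4A proteins cross the membrane several times and sit next to other receptors of immune cells, whose signalling they modify. Ms4a1 encodes CD20 of B cells and Ms4a2 the beta chain of the high-affinity IgE receptor of mast cells, and the genes followed here belong to a branch known from monocytes and macrophages. In mouse brain, Ms4a7 is known for macrophages of the brain's borders and for cells that come in from blood more than for resting microglia. In humans the MS4A4A and MS4A6A region carries variants linked to Alzheimer's disease and to the level of soluble TREM2, a receptor of microglia.

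Total counts ran from 18113450 to 36297826 in the brain and tumour libraries and from 5077787 to 7801073 in monocytes, so low counts were least precise in monocytes. Levels are given as CPM, counts scaled to library size with TMM factors, mean ± SD. The macrophage marker list was detected in every group, with no gene of it at 0. The summed level of 10 microglia markers was 33400–37100 CPM in MG of normal brain, 14480–23550 and 2564–9329 in MG of GEMM and GL261 tumours, 2860–5407 and 767–1596 in their BMDM, and 262–352 in monocytes. GL261 tumour 80769 stood apart: Chi3l3, a chitinase-like gene of monocytes and alternatively activated macrophages, was at 22720 CPM in its BMDM and 4421 in its MG, and at most 279 in any other tumour library. Results that use GL261 libraries were therefore also computed without this tumour, a choice made after its values were seen. Monocyte libraries 64820 and 64821 gave 13.5% and 14.3% of their counts to the ribosomal precursor Rn45s, against 1.05–1.62% in the other 3. Xist was at 142–646 CPM in monocytes and at most 2.89 elsewhere, while the Y-linked Ddx3y was at most 2.76 CPM in monocytes and at least 36.3 elsewhere, so differences from monocytes are also differences between sexes.

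In GENCODE M21 on GRCm38 the members lie between positions 11321039 and 11604849 of chromosome 19, a span of 284 kb within a row of 19 annotated Ms4a genes. Ms4a7 occupies 11321039–11336146 on the minus strand. Ms4a4c (11404770–11427246), Ms4a6c (11469366–11482192) and Ms4a6b (11516512–11531256) follow on the plus strand, and Ms4a6d (11586604–11604849) closes the row on the minus strand. The 3 Ms4a6 genes are close copies of each other. Their coding sequences were identical at 85.4% of aligned bases for Ms4a6b and Ms4a6c, at 81.2% for Ms4a6b and Ms4a6d and at 79% for Ms4a6c and Ms4a6d. All other pairs of members were at 59.3–68.3%. Of the 50-base fragments of their transcripts, 10.5% of Ms4a6c, 8.19% of Ms4a4c, 3.57% of Ms4a6b, 2.54% of Ms4a6d and 0.306% of Ms4a7 were also present in another gene. At 100 bases the shares were 1.66% for Ms4a4c (with Ms4a4b), 0.513% for Ms4a6c and 0 for the other 3. The sources used here give neither the read length nor the treatment of shared reads, so levels of Ms4a6c and Ms4a4c carry the most uncertainty of this kind and Ms4a7 the least.

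The 250 bases upstream of the RefSeq start (GRCm38.p6) are shown for the 4 analysed members with an entry, because these genes share a short motif close to the start. Capitals mark GGAAGT on either strand, a core bound by ETS-family transcription factors, among them PU.1 of myeloid cells.
Ms4a7, chr19:11336147-11336396, minus strand: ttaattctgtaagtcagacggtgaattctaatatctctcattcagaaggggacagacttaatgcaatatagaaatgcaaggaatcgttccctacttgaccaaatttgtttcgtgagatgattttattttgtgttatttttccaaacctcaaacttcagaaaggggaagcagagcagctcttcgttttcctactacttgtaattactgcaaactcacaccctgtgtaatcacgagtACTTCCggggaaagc
Ms4a4c, chr19:11407411-11407660, plus strand: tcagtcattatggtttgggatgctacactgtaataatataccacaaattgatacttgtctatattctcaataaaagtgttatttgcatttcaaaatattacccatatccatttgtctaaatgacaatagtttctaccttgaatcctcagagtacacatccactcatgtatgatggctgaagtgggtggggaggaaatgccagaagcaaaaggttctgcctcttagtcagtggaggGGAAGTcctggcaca
Ms4a6c, chr19:11469118-11469367, plus strand: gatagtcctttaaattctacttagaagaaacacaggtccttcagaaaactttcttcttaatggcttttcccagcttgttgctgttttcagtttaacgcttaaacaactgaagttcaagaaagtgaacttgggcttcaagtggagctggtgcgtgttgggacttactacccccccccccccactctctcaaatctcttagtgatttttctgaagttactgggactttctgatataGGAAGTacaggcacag
Ms4a6b, chr19:11518309-11518558, plus strand: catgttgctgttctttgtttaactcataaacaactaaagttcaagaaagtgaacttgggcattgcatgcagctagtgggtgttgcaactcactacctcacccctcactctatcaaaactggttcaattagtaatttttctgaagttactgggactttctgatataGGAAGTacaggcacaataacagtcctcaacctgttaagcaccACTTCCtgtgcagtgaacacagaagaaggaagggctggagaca
The motif ended 10 bases before the start in Ms4a7 and in Ms4a4c, 11 bases before it in Ms4a6c, and 38 and 80 bases before it in Ms4a6b. It was chosen after the sequences were seen. Either-strand matches were present in 19.7% of 32851 RefSeq windows of the same length and in 5 of 13 windows of other Ms4a genes. A second RefSeq start of Ms4a7 (chr19:11334696-11334945) and the window of Ms4a4a held no match. Ms4a6b and Ms4a6c shared an identical run of 48 bases, which holds the motif nearest the start in Ms4a6c and the farther one in Ms4a6b. The letters GAGGAA, another ETS-type core, on either strand, were present in Ms4a4c among these 4 windows and in 23.3% of all windows. These matches describe letters in these windows and were not tested for binding.

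Each gene had its own order of groups, as the plot of levels in every library shows. Ms4a7 and Ms4a6d were highest in tumour BMDM, while Ms4a6c and Ms4a6b had overlapping ranges in blood monocytes and BMDM, as did Ms4a4c in monocytes and GL261 BMDM. Normal MG had almost no Ms4a7 or Ms4a4c, and Ms4a6d and Ms4a6b were, per length, their main members. Summed over the 5 genes, the level was 361 ± 16.2 CPM in MG of normal brain, 762 ± 174 and 627 ± 116 in MG of GEMM and GL261 tumours, 2820 ± 551 and 3051 ± 172 in their BMDM, and 1725 ± 245 in blood.

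**Figure D1:**
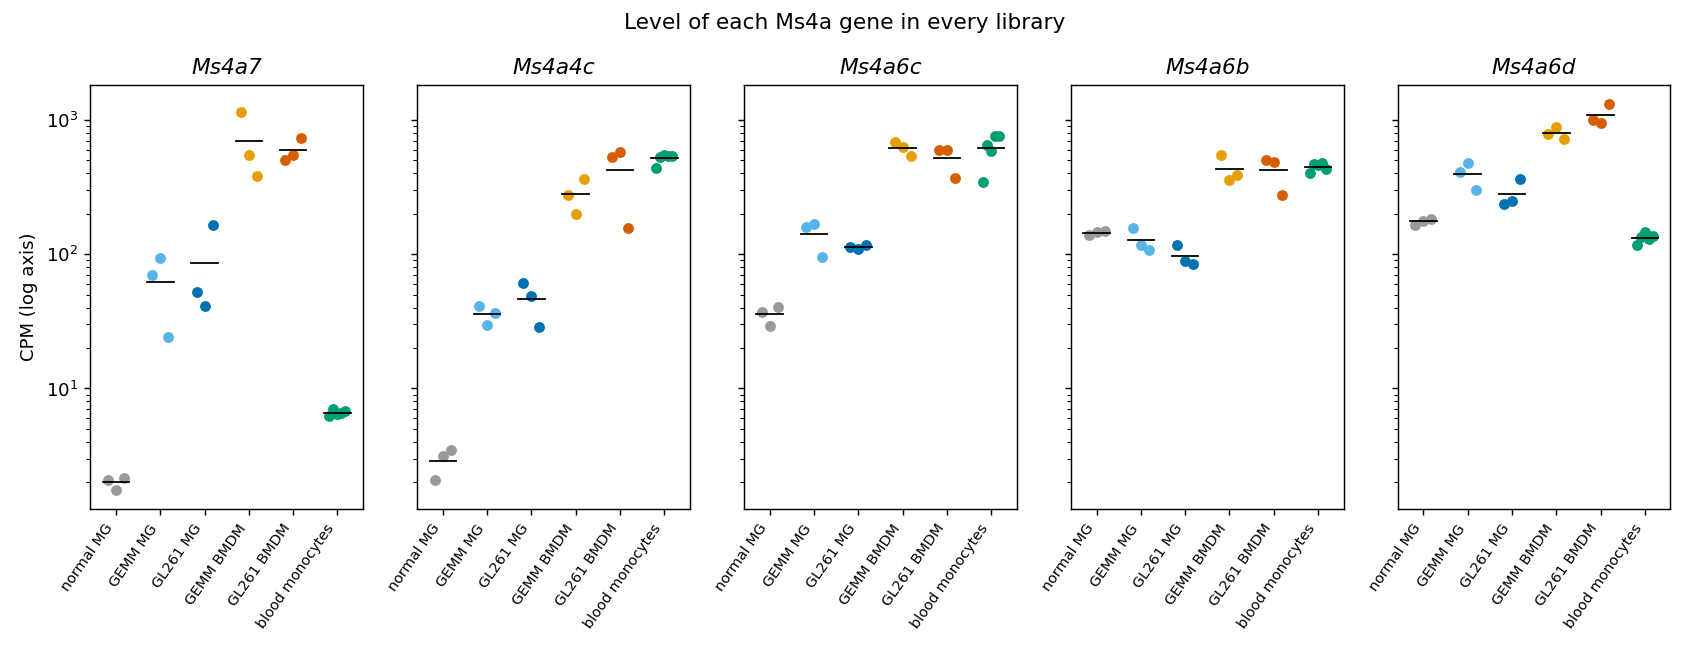
CPM (log axis) of the 5 Ms4a genes in each of the 20 libraries; points are libraries, coloured by group, and lines are group means. Ms4a7 lies at 1.76–2.16 CPM in normal MG and 385–1147 in BMDM, whereas Ms4a6b stays between 85.0 and 548 throughout.

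The first question was how recruited macrophages differ from resident ones in the same tumours. All 5 genes were higher in BMDM than in MG in both models (edgeR, adjusted p under 0.05), where 12.7% of all genes tested were called higher and 8.10% lower in GEMM, and 10.7% and 6.81% in GL261. The direction held within each tumour for every gene: the 30 ratios of BMDM over MG ran from 1.85 to 16.5. The members' median log2 fold change was 2.14 in GEMM and 2.19 in GL261, against 0.01 and −0.08 over all genes. The members were chosen with earlier results of these data known, so this contrast only describes them. In these bulk libraries, fewer cells that express a gene and less RNA per cell cannot be told apart.

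Ms4a7 showed the widest range. In the MG of GEMM tumours 68702, BB30101 and BB30105 it was at 69.6, 93.3 and 24.3 CPM, and in the BMDM of the same tumours at 1147, 550 and 385. In GL261 tumours 80766, 80767 and 80769 the MG were at 52.0, 41.4 and 166 CPM and the BMDM at 505, 544 and 737. No MG library reached the lowest BMDM library, but both groups of each model varied, with GEMM BMDM spread from 385 to 1147 CPM and GL261 MG 80769 well above its group. The difference was 11.1-fold in GEMM (log2 3.48 ± 0.52 SE, adjusted p = 0.000125) and 6.89-fold in GL261 (log2 2.79 ± 0.50, adjusted p = 0.000883). These sizes rest in part on single libraries: the log2 difference was 2.82 in GEMM without BMDM 68702, and in GL261 it was 3.67 without MG 80769 and 3.49 without tumour 80769, each still called. GEMM BMDM 68702 also held summed neutrophil markers at 2075 CPM, against 99.2 in BMDM BB30101 and 14.1 in BMDM BB30105. The part of neutrophils in its Ms4a7 level was not tested.

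Ms4a4c, which interferons induce in mouse immune cells, was at 41.4, 29.8 and 36.3 CPM in GEMM MG and at 276, 200 and 361 in GEMM BMDM. In GL261 it was at 61.2, 49.2 and 28.6 CPM in MG and at 533, 582 and 157 in BMDM. Tumour 80769 was the lowest of its group in both cell types, the reverse of its place for Ms4a7, and MG and BMDM did not overlap. BMDM were 7.79-fold higher in GEMM (log2 2.96 ± 0.39, adjusted p = 3.66e-05) and 9.15-fold in GL261 (log2 3.19 ± 0.39, adjusted p = 2.54e-05).

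The close copies Ms4a6c and Ms4a6b differed less. For Ms4a6c, MG were at 159, 169 and 94.9 CPM in GEMM and 113, 110 and 118 in GL261, and BMDM at 689, 628 and 543 and at 594, 597 and 370. Ms4a6b in MG was at 158, 117 and 107 CPM (GEMM) and 118, 88.8 and 85.0 (GL261), and in BMDM at 548, 356 and 387 and at 508, 483 and 279. Again the groups did not overlap, and GL261 tumour 80769 gave the lowest BMDM value of both genes. Ms4a6c was 4.40-fold (log2 2.14 ± 0.28, adjusted p = 3.13e-05) and 4.57-fold higher (log2 2.19 ± 0.28, adjusted p = 3.37e-05) in BMDM of GEMM and GL261, and Ms4a6b 3.38-fold (log2 1.76 ± 0.22, adjusted p = 2.27e-05) and 4.35-fold higher (log2 2.12 ± 0.22, adjusted p = 7.42e-06).

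Ms4a6d, whose protein has been reported in a complex with the receptor Vsig4 in mouse macrophages, had the highest level per length of the 5 in every tumour MG library. GEMM MG were at 410, 477 and 300 CPM and GEMM BMDM at 785, 880 and 726. GL261 MG were at 238, 250 and 362 CPM and GL261 BMDM at 1004, 952 and 1311. Every BMDM library was above every MG library, by less than in any other member in GEMM. The difference was 2.01-fold in GEMM (log2 1.01 ± 0.19, adjusted p = 0.00086) and 3.85-fold in GL261 (log2 1.95 ± 0.19, adjusted p = 4.7e-06).

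**Figure D2:**
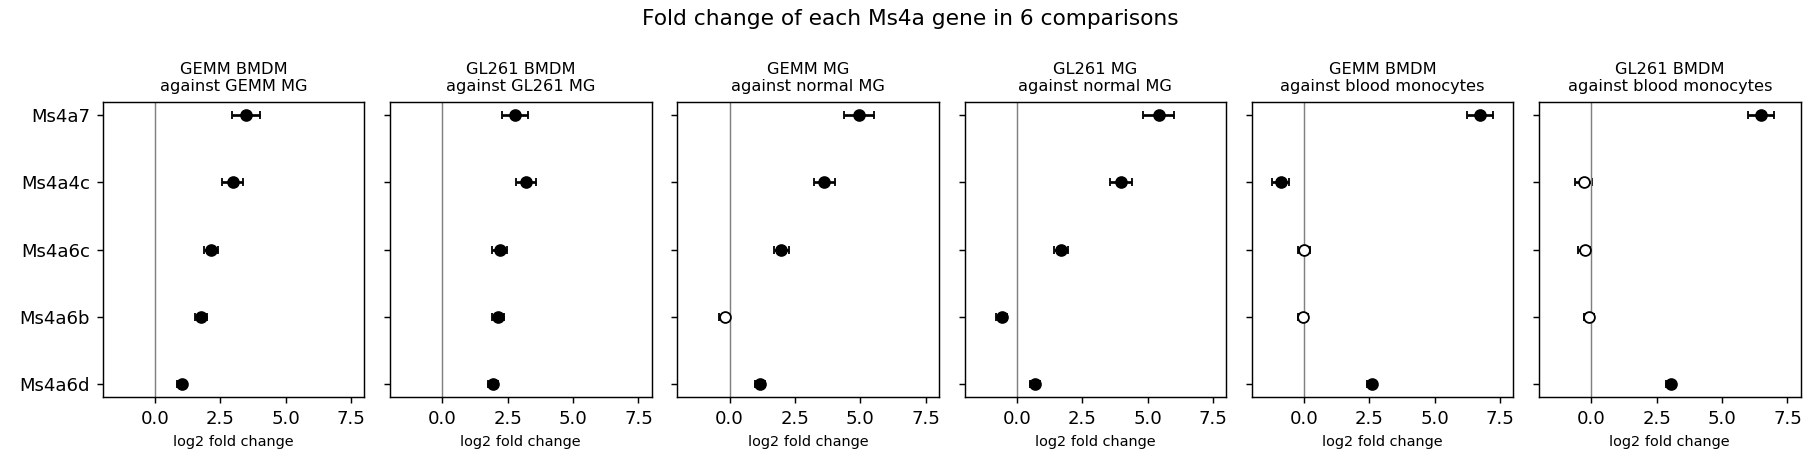
Log2 fold change (x axis) of each Ms4a gene in 6 comparisons; points are edgeR estimates, bars their SE, filled points have an adjusted p under 0.05 and open points do not. All 5 genes lie to the right of 0 in BMDM against MG of both models, and Ms4a7 and Ms4a6d alone are higher in BMDM than in monocytes.

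Whether the lineage difference depended on the tumour model was tested as an interaction in the same fit. No member was called in either direction by edgeR, where 0.605% of all genes were called higher and 1.02% lower. Ms4a6d came nearest, with a difference between BMDM and MG that was larger in GL261 by log2 0.93 ± 0.26 (unadjusted p = 0.00232, adjusted p = 0.0805). It was the 1 member with an unadjusted p under 0.05, and DESeq2 called it (adjusted p = 0.0192) while limma-voom called none. Its adjusted p was 0.0362 without tumour 80769, 0.0297 without GEMM MG BB30105, 0.0236 without GL261 MG 80769 and 0.0416 without GL261 BMDM 80767. For Ms4a7 the estimate was log2 −0.69 ± 0.67, for Ms4a4c 0.23 ± 0.51, for Ms4a6c 0.054 ± 0.37 and for Ms4a6b 0.36 ± 0.30 (adjusted p = 0.681, 0.89, 0.983 and 0.613). With these SEs, a p that misses the threshold does not show that the models were alike.

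The second question was how MG of tumours differ from MG of normal brain. Ms4a7, Ms4a4c, Ms4a6c and Ms4a6d were higher in tumour MG of each model, and Ms4a6b was not. In GEMM MG 4 were called higher and 0 lower by edgeR (0 lower also by DESeq2, by limma-voom and at an unadjusted p under 0.05), against 23.0% of all genes higher and 20.9% lower. In GL261 MG 4 were called higher and 1 lower, against 30.6% and 27.2%. The 2 comparisons share the normal MG libraries, so they do not count as separate evidence.

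Ms4a7 was at 2.08, 1.76 and 2.16 CPM in normal MG, from 62, 45 and 63 counts, far below the lowest tumour MG library (24.3). It was 31.1-fold higher in GEMM MG (log2 4.96 ± 0.57, adjusted p = 3.05e-06) and 43.0-fold higher in GL261 MG (log2 5.43 ± 0.59, adjusted p = 5.95e-07). Ms4a4c was at 2.08, 3.13 and 3.50 CPM in normal MG and also did not overlap with tumour MG. It was 12.3-fold higher in GEMM MG (log2 3.62 ± 0.41, adjusted p = 2.47e-06) and 15.9-fold in GL261 MG (log2 4.00 ± 0.42, adjusted p = 4.06e-07).

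Ms4a6c and Ms4a6d were already present in normal MG and rose less. Ms4a6c was at 36.9, 29.4 and 40.7 CPM there and was 3.95-fold higher in GEMM MG (log2 1.98 ± 0.28, adjusted p = 1.95e-05) and 3.19-fold in GL261 MG (log2 1.67 ± 0.27, adjusted p = 4.97e-05). Ms4a6d was at 165, 178 and 184 CPM and was 2.25-fold higher in GEMM MG (log2 1.17 ± 0.19, adjusted p = 8.38e-05) and 1.61-fold in GL261 MG (log2 0.69 ± 0.19, adjusted p = 0.00443). Neither gene's normal range touched that of tumour MG.

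Ms4a6b was the exception. Normal MG were at 140, 146 and 148 CPM, inside the range of GEMM MG (107–158) and above all 3 GL261 MG libraries (85.0–118). GEMM MG did not pass the test (log2 −0.18 ± 0.21, adjusted p = 0.511), and GL261 MG were 1.49-fold lower (log2 −0.57 ± 0.21, adjusted p = 0.0293). That call was lost without GL261 MG 80767 (adjusted p = 0.0919) or 80769 (adjusted p = 0.101).

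Markers of other cells moved in the same libraries. Tumour MG held 8 monocyte markers (the list without Chi3l3) at 3.94–25.9% of the level in BMDM of the same tumour. These 8 summed to 17.4–29.7 CPM in normal MG, 38.2–92.5 in GEMM MG and 53.2–117 in GL261 MG, so part of each percentage is also present in normal MG. Ly6c2 was at 0 in all normal MG, while F13a1 was at 11.4 ± 4.82 CPM there, 10.6 ± 7.03 in GEMM MG and 10.1 ± 9.08 in GL261 MG. Vcan alone of the 8 was by mean higher in MG than in BMDM of both models. It was at 5.57 ± 3.20 CPM against 2.19 ± 1.35 in GEMM, and at 19.8 ± 11.3 against 7.26 ± 2.79 in GL261. Vcan thus raises these percentages, and the place of a gene beside the markers depends on the list. As a share of the BMDM level, Ms4a7 in MG was 6.07%, 17.0% and 6.31% in GEMM tumours 68702, BB30101 and BB30105, beside 4.83%, 8.13% and 3.94% for the monocyte markers. In GL261 tumours 80766, 80767 and 80769 it was 10.3%, 7.61% and 22.5%, beside 8.43%, 9.35% and 25.9%.
Ms4a7 was thus above the markers in 4 tumours and below them in 80767 and 80769, and so was Ms4a4c, at 8.46–18.3% of the BMDM level. The 3 Ms4a6 genes were above the markers in all 6 tumours: Ms4a6c was at 17.5–31.9%, Ms4a6b at 18.4–32.9%, and Ms4a6d at 23.7–27.6% in GL261 and 41.3–54.2% in GEMM. Normal MG already held Ms4a6c at 35.7 ± 5.75 CPM, Ms4a6b at 145 ± 4.28 and Ms4a6d at 176 ± 9.36. Part of these percentages, too, is thus present in normal MG. Markers of border-associated macrophages summed to 43.2–66.2 CPM in MG of normal brain and 121–231 in those of GEMM tumours. GL261 MG 80766 and 80767 were at 147 and 102, and 80769 at 959. The genes of this list differed. In normal, GEMM and GL261 MG, Lyve1 was at 5.29 ± 2.96, 1.29 ± 1.47 and 0.758 ± 1.13 CPM. Mrc1 was at 24.6 ± 3.33, 22.0 ± 6.99 and 174 ± 257, Folr2 at 2.03 ± 0.623, 21.9 ± 11.2 and 21.9 ± 32.2, and Cd38 at 2.75 ± 1.58, 35.1 ± 19.9 and 40.9 ± 28.2. The part of monocytes and border-associated macrophages in the difference between tumour and normal MG was not tested. Without tumour 80769, Ms4a7, Ms4a4c, Ms4a6c and Ms4a6d were still called higher in GL261 MG, Ms4a7 by log2 4.54.

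**Figure D3:**
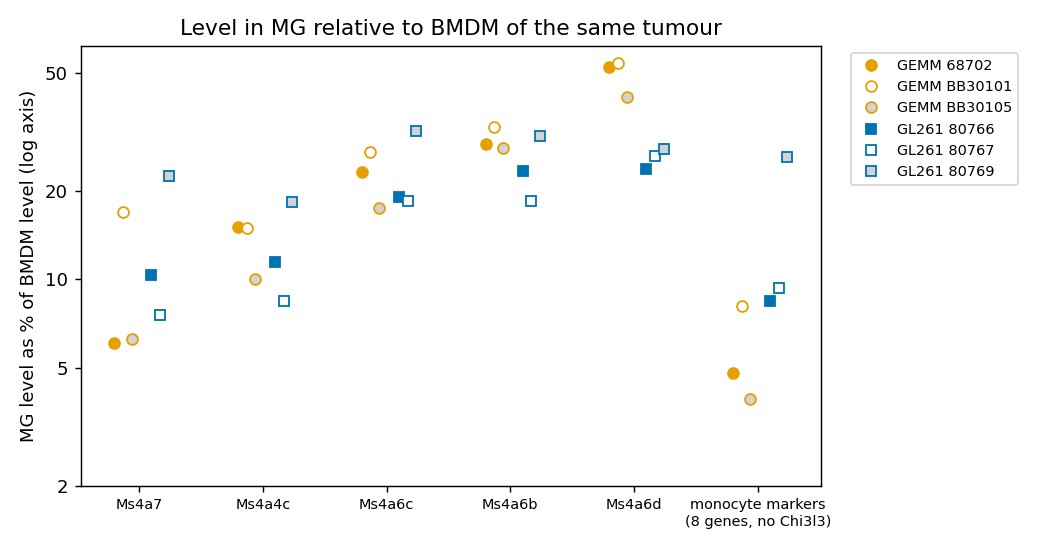
Level in MG as a percentage of the level in BMDM of the same tumour (log axis), for each Ms4a gene and for the summed level of 8 monocyte markers; each symbol is 1 tumour. Ms4a7 lies between 6.07% and 22.5% and the markers between 3.94% and 25.9%, with Ms4a7 below the markers only in GL261 tumours 80767 and 80769. Ms4a6d lies at 41.3–54.2% in the 3 GEMM tumours. The markers include Vcan, by mean higher in MG than in BMDM.

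The third question was how tumour BMDM differ from blood monocytes, the cells of their lineage in circulation. Ms4a7 and Ms4a6d were far higher in BMDM, and the other 3 members were not. In GEMM BMDM 2 members were called higher and 1 lower, against 31.6% and 25.7% of all genes. In GL261 BMDM 2 were called higher and 0 lower (0 lower also by DESeq2, by limma-voom and at an unadjusted p under 0.05), against 34.1% and 28.9%. The monocyte libraries are shared by these comparisons.

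Ms4a7 in monocytes ran from 6.28 to 6.99 CPM with a median of 6.60 in 5 libraries, below every tumour library of either cell type. GEMM BMDM were 105-fold higher (log2 6.71 ± 0.50, adjusted p = 5.11e-09) and GL261 BMDM 90.0-fold higher (log2 6.49 ± 0.49, adjusted p = 6.05e-09). Without GEMM BMDM 68702 the GEMM value was log2 6.11. Ms4a6d ran from 117 to 147 CPM with a median of 134, the lowest of all groups. It was 5.99-fold higher in GEMM BMDM (log2 2.58 ± 0.17, adjusted p = 8.77e-10) and 8.19-fold in GL261 BMDM (log2 3.03 ± 0.17, adjusted p = 1.49e-10).

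Monocytes held Ms4a4c, Ms4a6c and Ms4a6b at levels that overlapped with those of BMDM, except that Ms4a4c in every monocyte library was above every GEMM BMDM library. Ms4a4c ran from 435 to 549 CPM (median 540) in monocytes, Ms4a6c from 346 to 763 (median 650) and Ms4a6b from 400 to 475 (median 459). Against monocytes, Ms4a4c was 1.86-fold lower in GEMM BMDM (log2 −0.89 ± 0.33, adjusted p = 0.0285) and at log2 −0.29 ± 0.32 in GL261 BMDM (adjusted p = 0.45). The GEMM call was lost without BMDM 68702 (adjusted p = 0.0679), without BMDM BB30101 (0.164), without monocyte libraries 64820 and 64821 (0.069) and with no filter on low counts (0.0787). Ms4a6c was at log2 −0.001 ± 0.24 in GEMM BMDM and −0.25 ± 0.24 in GL261 BMDM, and Ms4a6b at −0.056 ± 0.19 and −0.081 ± 0.19, none of them called. Between the scalings TMM and RLE the median of all genes moved by log2 −0.107 for GEMM BMDM against monocytes, so values this close to 0 have no direction.

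Normal MG and monocytes were by mean the lowest and the highest group for Ms4a4c and Ms4a6c (monocytes overlapped with BMDM), while for Ms4a7 and Ms4a6d they were both below all tumour groups. Compared with monocytes, normal MG had 178-fold less Ms4a4c (log2 −7.48 ± 0.47, adjusted p = 2.93e-10), 17.4-fold less Ms4a6c (log2 −4.12 ± 0.29, adjusted p = 1.14e-09), 3.29-fold less Ms4a7 (log2 −1.72 ± 0.51, adjusted p = 0.0069) and 3.09-fold less Ms4a6b (log2 −1.63 ± 0.20, adjusted p = 1.65e-06). These were 4 members called lower, with 30.4% of all genes called lower and 32.4% higher. Ms4a6d was the 1 member called higher (log2 0.40 ± 0.17, adjusted p = 0.0419), and with RLE scaling it was not (adjusted p = 0.139), nor without any 1 of normal MG 67573 and 67574 or monocytes 64817, 64818, 64820 and 64821 (adjusted p = 0.0577 to 0.0924). Limma-voom did not call Ms4a7 here (adjusted p = 0.194).

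Between the models, no member was called by edgeR in either cell type. In MG, where 18.8% of all genes were called higher and 15.5% lower in GL261, Ms4a6d was at log2 −0.48 ± 0.19 (adjusted p = 0.0523) and was the 1 member with an unadjusted p under 0.05 and the 1 that DESeq2 and limma-voom called, lower in GL261. It was called lower without GEMM MG BB30105 (adjusted p = 0.00643) or GL261 MG 80769 (adjusted p = 0.00926). Without tumour 80769 it was called lower (log2 −0.70, adjusted p = 0.00495) and Ms4a4c higher (log2 0.63, adjusted p = 0.0454). In BMDM, where 10.2% of all genes were called higher and 9.46% lower in GL261, the 5 log2 differences ran from −0.25 to 0.60. Ms4a6d was the 1 with an unadjusted p under 0.05 (log2 0.45 ± 0.19, adjusted p = 0.0979), and neither DESeq2 nor limma-voom called any. Ms4a4c was called higher in GL261 BMDM without tumour 80769 (log2 1.00, adjusted p = 0.00442) or without its BMDM alone (log2 0.96, adjusted p = 0.0275). Total counts were lower in GL261 libraries (18113450–22088979) than in GEMM libraries (23064781–36297826), and no label gives a sequencing batch.

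Per length, the make-up of the family differed between cell types. With CPM per kb of protein-coding exon, Ms4a6d gave 60.0% ± 1.20 of the summed level in normal MG, Ms4a6b 28.4% ± 0.591, Ms4a6c 10.2% ± 1.48, and Ms4a4c and Ms4a7 under 1% each in every library. In monocytes Ms4a6c gave 37.2% ± 5.81, Ms4a4c 33.5% ± 2.56, Ms4a6b 19.0% ± 2.17, Ms4a6d 9.85% ± 1.17 and Ms4a7 0.436% ± 0.0637. In tumour BMDM Ms4a6d gave 33.6% ± 6.16 in GEMM and 41.0% ± 8.69 in GL261, and Ms4a7 24.3% ± 9.37 and 19.9% ± 4.82. Ms4a6d was the largest share in every GL261 BMDM library (35.0–51.0%), while in GEMM BMDM its range (26.8–38.7%) overlapped with that of Ms4a7 (16.6–34.7%). In tumour MG Ms4a6d still led, with 59.0% ± 2.49 in GEMM and 51.2% ± 3.13 in GL261, and Ms4a6b gave 11.1% ± 2.28 and 10.5% ± 3.21. The share of Ms4a6b was thus lower in tumour than in normal MG, while its own level was not called in GEMM MG and was 1.49-fold lower in GL261 MG.

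**Figure D4:**
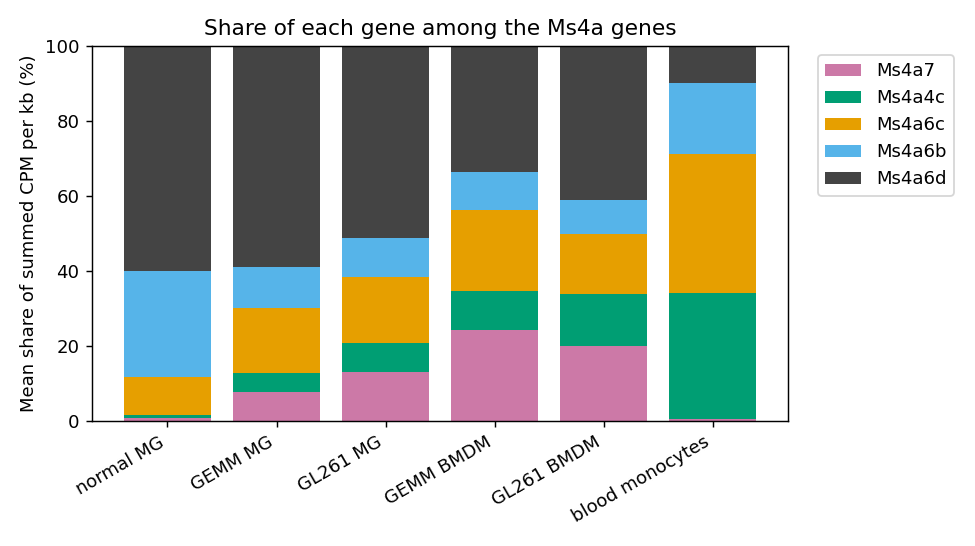
Mean share (%) of each Ms4a gene in the summed CPM per kb of the 5 genes, 1 stacked bar per group. Ms4a6d fills 60.0% of the bar of normal MG and 9.85% of that of monocytes, and the mean share of Ms4a7 is above 1% in the 4 tumour groups only.

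The other Ms4a genes and the sequence-related Tmem176a and Tmem176b behaved less uniformly. Of 13 such genes with a row, 8 passed the filter, and in BMDM against MG of each model 4 of the 8 were called higher and 4 were not called. Over all genes tested, 12.7% were called higher in GEMM and 10.7% in GL261. Ms4a4b, Tmem176a and Tmem176b were called in both models, Ms4a1 in GEMM only and Ms4a2, with no count in GL261 MG, in GL261 only. Ms4a4b, a T cell gene in mouse that shares fragments with Ms4a4c, was at 21.3 ± 12.3 CPM in BMDM of GEMM and 11.2 ± 3.23 in those of GL261 tumours, 43.3 ± 9.42 in monocytes and at most 2.54 on average in any MG group. It was higher in BMDM by log2 4.43 ± 0.50 in GEMM and 2.13 ± 0.45 in GL261 (adjusted p = 8.43e-06 and 0.00324), beside summed markers of T cells at 50.6 ± 16.9 CPM in BMDM and 6.69 ± 4.87 in MG of the GEMM, and at 18.4 ± 5.55 and 14.8 ± 3.98 in those of GL261. The part of T cells was not tested. Tmem176a, an intracellular membrane protein of myeloid and dendritic cells, was at 416 ± 136 CPM in BMDM and 117 ± 57.5 in MG of the GEMM, and at 74.4 ± 22.0 and 36.0 ± 7.19 in those of GL261. The dendritic cell list summed to 1278 ± 551 CPM in BMDM of the GEMM and 339 ± 258 in those of GL261. Tmem176a and Tmem176b were lower in GL261 than in GEMM BMDM (log2 −2.48 ± 0.31 and −1.93 ± 0.26, adjusted p = 4.45e-05 and 8.92e-05).

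Ms4a8a was highest in monocytes. It was at 74.2 ± 12.8 CPM in monocytes, 10.3 ± 10.4 in BMDM of GL261 and 2.18 ± 0.675 in those of GEMM tumours, and 2.36 ± 3.79 or less in MG. Both BMDM groups were lower than monocytes (log2 −2.84 ± 0.82 in GL261 and −5.08 ± 0.94 in GEMM, adjusted p = 0.00583 and 0.000168). Ms4a1, the B cell gene for CD20, was at 61.0 ± 47.5 CPM in monocytes and at most 2.55 on average elsewhere, and the summed B cell markers, a list that includes Ms4a1, were at 80.9–677 CPM in the monocyte libraries.

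Receptors that MS4A proteins are known to work with, and the signalling genes behind them, made a list of 12 genes, all tested. In BMDM against MG, 4 were higher, 3 lower and 5 not called in GEMM, and 5 higher and 7 not called in GL261. Over all genes tested, 12.7% were called higher and 8.10% lower in GEMM, and 10.7% and 6.81% in GL261. Clec7a, the gene for dectin-1, which human MS4A4A binds, was at 26.3 ± 1.18 CPM in MG of normal brain, 1566 ± 449 and 697 ± 439 in MG of GEMM and GL261 tumours, 1779 ± 617 and 2047 ± 1004 in their BMDM, and 616 ± 57.2 in blood. It was higher in tumour MG than in normal MG (log2 5.89 ± 0.49 in GEMM and 4.73 ± 0.47 in GL261, adjusted p = 1.03e-07 and 2.41e-07). Between BMDM and MG it was called in GL261 (log2 1.56 ± 0.41, adjusted p = 0.0136) and not in GEMM, while the difference between the models was not called (edgeR interaction, adjusted p = 0.25). Malt1 and Syk, which carry the dectin-1 signal, were higher in BMDM of both models (Malt1 log2 2.70 ± 0.31 and 2.80 ± 0.31, adjusted p = 1e-05 and 1.09e-05; Syk log2 1.01 ± 0.23 and 1.17 ± 0.23, adjusted p = 0.00375 and 0.00165). Card9, Bcl10 and Plcg2, of the same signal, were not called in either model, with log2 values of −0.36, −0.019 and −0.049 in GEMM and −0.17, 0.38 and 0.29 in GL261. Trem2 and its adaptor Tyrobp were lower in GEMM BMDM than in GEMM MG (log2 −1.22 ± 0.24 and −0.58 ± 0.16, adjusted p = 0.00146 and 0.0168). They were not called in GL261, at log2 −0.51 ± 0.24 and 0.16 ± 0.16. Their difference between the models was not called either (edgeR interaction, adjusted p = 0.329 and 0.113). Kit was the 1 gene of the list with a called interaction (edgeR, log2 −5.015 ± 0.92, adjusted p = 0.0109). It was higher in BMDM in GEMM (log2 4.63 ± 0.71) and not called in GL261 (−0.39 ± 0.61). Tnfrsf18 was higher in BMDM of both models (log2 4.52 ± 0.77 and 2.54 ± 0.71). Adam10 was called lower in GEMM only (log2 −0.62 ± 0.20) and Adam17 higher in GL261 only (0.56 ± 0.18).

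Within 500 kb of the members on either side the table held 28 further genes, of which 12 passed the filter. In BMDM against MG 4 of the 12 were called higher in GEMM and 3 in GL261, and the other 8 and 9 were not called. Over all genes tested, 12.7% were called higher in GEMM and 10.7% in GL261. The clearest were Stx3, a vesicle fusion protein (log2 2.87 ± 0.26 in GEMM and 0.88 ± 0.24 in GL261), and AW112010 (log2 2.42 ± 0.38 and 2.75 ± 0.39), whose levels were 490 ± 105 CPM in BMDM and 91.7 ± 15.9 in MG of the GEMM. The median log2 fold change of the 12 was 0.25 in GEMM and 0.24 in GL261, against 2.14 and 2.19 for the members, which were chosen with earlier results of these data known.

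Likeness of profiles was measured over the 20 libraries as the root mean square difference of centred log2(CPM + 1) values, and it describes libraries that share depth and groups. Nearest to Ms4a7 were Cd38 (0.808), Nr4a2 (0.842), Anpep, Il18bp and Spon1. Cd38, an NAD-consuming surface enzyme and one of the border-associated macrophage markers, was at 2.75 ± 1.58 CPM in MG of normal brain, 528 ± 285 and 344 ± 56.8 in BMDM of GEMM and GL261 tumours, and 12.6 ± 9.499 in monocytes. Ms4a4c was nearest to Cybb (0.581), the catalytic chain of the phagocyte oxidase, then Cd93, Fxyd5, Mndal and Myof. Cybb was at 8.62 ± 4.41 CPM in MG of normal brain, 1474 ± 578 in GEMM BMDM and 2318 ± 300 in monocytes. Ms4a6c was nearest to Sepx1 (0.357) and Ms4a6b to Tuba4a (0.336). Ms4a6d was nearest to Ctsc (0.374), a lysosomal protease at 958 ± 108 CPM in normal MG, 4009 ± 397 in GEMM BMDM and 722 ± 72.1 in monocytes. No member was among the 5 nearest genes of another: the smallest distance between members was 0.883, for Ms4a6b and Ms4a6c, and the largest 3.02, for Ms4a4c and Ms4a7.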

How the data were processed

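The 20 libraries held RNA of sorted MG, BMDM and blood monocytes. The values are the raw counts per gene symbol that the authors deposited. Tools listed in the submitters' processing notes are DESeq2, HTSeq, STAR 2.5.0e and CASAVA 1.8, with mm10 as the build and no word on role or order; for annotation, read length and strand setting the sources used here give nothing. Titles gave each library its group and number. The 6 genes and all lists were chosen with earlier results of these data known, and other genes are named by a rule that takes all Ms4a and Tmem176 symbols, a list of 12 partner genes, up to 6 neighbours by adjusted p and the 5 genes nearest in profile. Marker genes, Rn45s, Xist and Ddx3y stand beside results they touch.

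Low counts were removed with filterByExpr (minimum count 10, minimum total 15), and the rest were fitted over all 6 groups by the robust quasi-likelihood method of edgeR 4.0.16 with TMM scaling, under R 4.3.3. A gene is called at a Benjamini-Hochberg adjusted p under 0.05 over 15363 genes. DESeq2 1.42.0 and limma-voom (limma 3.58.1), RLE scaling, no filter, fits of the compared groups alone, a replicate block, and leaving out libraries were alternatives. The fit was tested on simulated counts with 200 changed genes. MG and BMDM with the same number were taken as matched, per the series' design text; their deviations from the group means correlated across genes, with r from 0.281 to 0.383 (GEMM) and from 0.353 to 0.514 (GL261), and different numbers at −0.432 to 0.142. No pair of replicates agreed within sampling noise (lowest chi-square per degree of freedom 3.20, between monocyte libraries 64818 and 64819). Sequences are from RefSeq (GRCm38.p6), and positions, exon lengths and fragments from GENCODE M21.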

Additional observations from a re-analysis of the deposited data

Results flagged for a closer look

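Among the 5 blood monocyte libraries, Ms4a4c was lowest in library 64817, at 435.3 CPM, while the other 4 lay between 526 and 549 CPM, a gap large enough against the whole range to set this library apart by Dixon's test. Monocytes are the only group with enough libraries for this check, which was made for each of the 5 genes. Chance flags about 1 in 20 such groups if their libraries are separate samples. The same library had the lowest Ms4a6c (346 CPM) and the highest summed levels of B cell markers (677 CPM, others 80.9–267) and T cell markers (71.5 CPM, others 25.0–30.5), whose part in the low value was not tested. Without it, Ms4a4c in GEMM BMDM was still called lower than in monocytes (edgeR adjusted p = 0.0298).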

How the results depend on the processing

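All 5 members stayed higher in BMDM than in MG of both models under every alternative run. With the replicate block, which uses the pairing by tumour, 5 members were higher in each model (Ms4a7 by log2 3.54 in GEMM and 3.05 in GL261) and no member call changed. Of the counts of called members over all alternatives, 240 stayed within 1.5 times the reported count and 28 did not. Counts for the difference between models went from 0 to 1 higher with DESeq2 and without tumour 80769, and ranged from 0 to 1 when single libraries were left out. For GL261 against GEMM MG they went from 0 to 1 lower with DESeq2, limma-voom and without tumour 80769 (there also 1 higher), with a range of 0 to 1 lower over single libraries. For GL261 against GEMM BMDM they went to 1 higher without tumour 80769 (0 to 1 over single libraries), and for GL261 MG against normal MG the 1 lower call ranged from 0 to 1. For GEMM BMDM against monocytes the 1 lower call went to 0 with no filter and without monocyte libraries 64820 and 64821, and for normal MG against monocytes the 1 higher call went to 0 with DESeq2, RLE scaling and without those libraries; both ranged from 0 to 1 over single libraries. The cause was not tested.

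Signs turned only for values that were not called. In the difference between models, Ms4a6c went to −0.019 (limma-voom) and −0.02 (replicate block), and Ms4a7 to 0.016 without tumour 80769. In GL261 against GEMM MG, Ms4a7 went to −0.419 without that tumour. In GL261 against GEMM BMDM, Ms4a6b went to 0.002 (DESeq2 and RLE), 0.0 (only these groups fitted) and 0.203 (without that tumour). In GEMM BMDM against monocytes, Ms4a6b went to 0.077 (no filter) and Ms4a6c to 0.043 (limma-voom), 0.144 (no filter) and 0.221 (without 64820 and 64821). In GL261 BMDM against monocytes without tumour 80769, Ms4a4c went to 0.125 and Ms4a6b to 0.164. Over single libraries left out, the ranges were −0.02 to 0.599 (Ms4a4c), −0.055 to 0.395 (Ms4a6c) and −1.022 to 0.198 (Ms4a7) for the difference between models, −0.419 to 0.8 (Ms4a7) for GL261 against GEMM MG, −0.176 to 0.205 (Ms4a6b) and −0.552 to 0.367 (Ms4a7) for GL261 against GEMM BMDM, −0.299 to 0.107 (Ms4a6b) and −0.151 to 0.149 (Ms4a6c) for GEMM BMDM against monocytes, and −0.589 to 0.123 (Ms4a4c) and −0.254 to 0.163 (Ms4a6b) for GL261 BMDM against monocytes. With 3 libraries a group, small differences can go uncalled, and at 5077787 to 7801073 counts monocyte libraries limit low genes most. CPM over raw totals differed from the scaled CPM by 0.881 to 1.25 times.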

Other observations

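Of the other Ms4a genes, some were seen in few libraries. Ms4a3, known from granulocyte and monocyte progenitors, was at 5.22 ± 7.75 CPM in monocytes and at most 0.744 on average elsewhere. Summed neutrophil markers ranged from 1523 to 23500 CPM over the same 5 monocyte libraries. Ms4a2, the IgE receptor chain, was at 1.69 ± 1.30 CPM in GEMM BMDM, where markers of mast cells and basophils summed to 63.2 ± 58.4 CPM, and had no count in any GL261 MG library. Ms4a4d, next to Ms4a6d on the chromosome, was at 1.69 ± 1.35 CPM in GL261 MG and 0.0486 ± 0.0841 in GEMM MG (log2 4.72 ± 1.02, edgeR adjusted p = 0.00187).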
